A study of Oryza sativa with 24 samples.

Results

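Leaves of rice kept in trans-zeatin were compared between 2 incubation times. Trans-zeatin (tZ) is an active cytokinin, a plant hormone derived from adenine, and the plants were Oryza sativa cv Nipponbare. The comparison sets the 3 leaf arrays titled as tZ for 120 min against the 3 titled as tZ for 30 min, which are 6 of the 24 arrays in the series. Members were chosen by sample title, and every probe set of the array other than the control probe sets was followed. Per the labels, seedlings were 2 weeks old and had been grown hydroponically. From each, the third leaf was cut under water at the lamina joint and kept at 30 °C. The groups used are leaf tZ at 120 and at 30 min (5 µM tZ with 0.1% dimethylsulfoxide, DMSO, the solvent), leaf DMSO at 120 and at 30 min (0.1% DMSO alone), and roots kept in tZ for the same times, with 3 arrays in each group. The roots were labelled with the same age, 5 µM tZ, 0.1% DMSO and 30 °C. Root arrays titled DMSO for the same times (0.1% DMSO alone, 30 °C) entered the fits with root arrays but were not compared. Leaves of all these leaf groups were excised, so excision was shared by treated and control samples. The labels do not state that replicate arrays stand for separate plants or cultures. The p-values therefore cover only array-to-array spread within a group, which may be technical.

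Cytokinins are perceived by histidine kinase receptors, whose signal passes through phosphotransfer proteins to type-B response regulators in the nucleus. These transcription factors switch on the type-A response regulator genes within minutes, and the type-A proteins in turn dampen the pathway. Cytokinin oxidase/dehydrogenases break the hormone down, and their genes are also known to respond to it. In leaves cytokinins are known for delaying senescence and for sustaining chloroplast functions.

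The comparison can be read in 2 ways, and both are given. Taken as titled, it shows what changed between 30 and 120 min in tZ. If the titles of the tZ 30 min and DMSO 120 min arrays had been exchanged, the same 6 arrays would compare tZ with DMSO at 120 min. The comparison titled DMSO 120 against 30 min would then be tZ against DMSO at 30 min. Both comparisons titled tZ against DMSO would become comparisons of times. The difference between the 2 time effects would keep its value and become the tZ effect at 120 min minus that at 30 min. The titles, source names and treatment protocols of the 12 leaf arrays do not contradict one another, and no label read here mentions an exchange. Groups are therefore called by their titles throughout. Which reading holds was not tested.

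Values are linear signals of 1 probe set per gene, the brightest in leaf where a gene has several. Changes are differences of mean log2(signal + 20), 120 min minus 30 min, and a change was called at an adjusted p below 0.05 in limma, a linear model fitted across all probe sets. In the labels' tissue field even the leaf samples are called root, so the organ was checked with marker genes. The rubisco activase gene OsrcaA1 read 18135 ± 408 in leaf tZ at 120 min and 16936 ± 1054 in leaf tZ at 30 min (SD, n = 3 each). OsCASP1, a Casparian strip protein gene of the root endodermis, read 9.63 ± 3.16 at 120 min and 11.1 ± 1.30 at 30 min in these leaf arrays. LFNR1, OsGLK2, CAB2R and OsrbcS were likewise bright in all 6 arrays. These leaf genes and OsCASP1 follow the titles and not the tissue field. Of the other root genes checked, the potassium transporter gene OsHAK1 was bright in leaf too, at 10316 ± 233 in tZ 120 min and 8868 ± 419.8 in tZ 30 min arrays. The iron transporter gene OsIRT1 read 458 ± 78.7 at tZ 120 min and 292 ± 46.3 at tZ 30 min. Both values lay above the array medians, so of the root genes checked only OsCASP1 was dim in leaf. Median signals of the 12 leaf arrays lay between 47.6 and 57.0, and replicate arrays of leaf groups correlated at 0.975 to 0.982 across probe sets. In such bulk samples fewer cells of a type and less RNA per cell cannot be told apart.

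Between 120 and 30 min in tZ, 2749 of the 34316 probe sets tested were called, which is 8.01% of them. Of these, 1303 were higher at 120 min (3.8%) and 1446 lower (4.21%). The count was 1819 without an intensity trend. After shifting arrays to 1 median it was 1864, of which 51.8% were higher, against 47.4%. The median change over all probe sets tested was -0.004 and the median size of a change 0.152. Only 222 calls rose and 126 fell by more than 1 on the log2 scale. In a principal component analysis of the 12 leaf arrays, the first component carried 58.7% of the variance and separated arrays titled tZ from those titled DMSO. The second, with 6.9%, separated the arrays of each treatment by titled time. Its scores ran from -33.98 to -26.26 at tZ 120 min and from 17.92 to 37.9 at tZ 30 min. The 6 DMSO arrays lay between them, at -9.13 to -4.06 for DMSO 120 min and at 1.94 to 11.78 for DMSO 30 min.

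**Figure D1:**
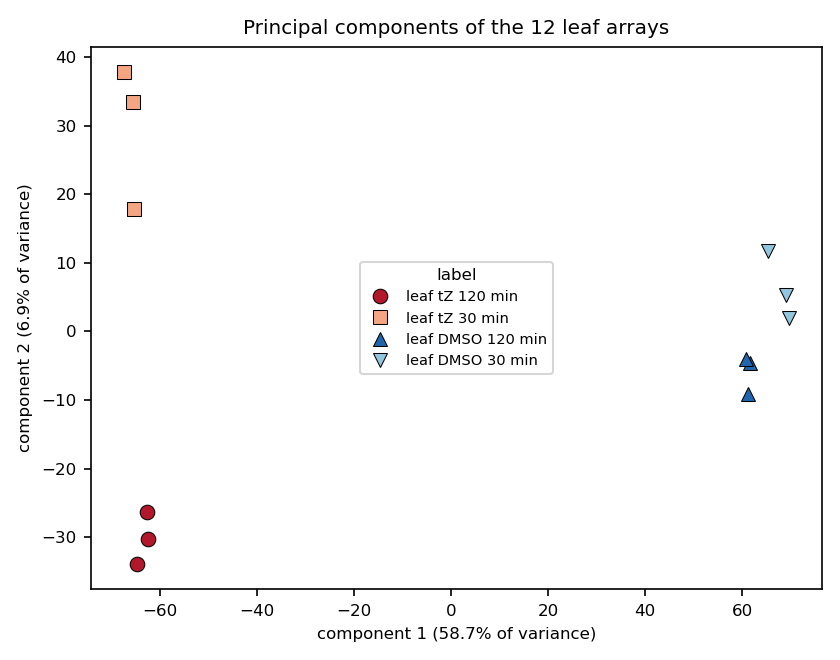
Scores of the 12 leaf arrays on the first and second principal component of log2(signal + 20), with the share of variance on each axis, coloured by titled treatment and time. The first axis (58.7%) separates arrays titled tZ and DMSO, and on the second (6.9%) the tZ 120 min arrays (-33.98 to -26.26) and tZ 30 min arrays (17.92 to 37.9) lie on either side of the DMSO arrays. The DMSO arrays separate there by titled time in the same direction but less far (120 min, -9.13 to -4.06, and 30 min, 1.94 to 11.78).

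Genes of the cytokinin response were among the largest rises. All 5 tested type-A response regulators were higher at 120 min, beside 3.8% of all probe sets. Their median change was 3.48, beside -0.004 over all probe sets tested. OsRR1, OsRR9, OsRR4, OsRR2 and OsRR6 ranked 2, 3, 5, 10 and 19 from the top of all 34316 probe sets. A sixth member, OsRR5, was too dim to be tested, at 8.80 ± 2.99 in tZ 120 min and 6.53 ± 4.10 in tZ 30 min arrays. The count of 5 was the same with quantile normalization, with arrays shifted to the same median and without an intensity trend.

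OsRR1 read 843, 786 and 646 in the tZ 120 min arrays, against 27.2, 63.6 and 6.70 in the tZ 30 min arrays. All 3 arrays at 120 min lay far above all 3 at 30 min, where the signals were near or below the median of the arrays. The change was 4.03 (SE 0.29, adjusted p = 1.3e-07), and with pseudocounts other than 20 and other settings it ran from 2.92 to 4.68. OsRR9 read 12032, 12220.1 and 13017 at tZ 120 min, against 1023, 934 and 1012 at tZ 30 min. Arrays within each group lay close together and the groups were far apart. Its change of 3.62 (SE 0.058) had the adjusted p of 1.5e-15, and it ran from 3.55 to 3.65 over the other settings.

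OsRR4 read 4150.0, 3828 and 4441 at tZ 120 min, against 371, 307 and 383 at tZ 30 min, a change of 3.48 (SE 0.092, adjusted p = 6.1e-13). OsRR2 read 1558, 1619.9 and 1909 at tZ 120 min, against 261, 302 and 290.0 at tZ 30 min, a change of 2.49 (SE 0.16, adjusted p = 3.9e-08). OsRR6, the gene read with the smallest relative spread of the 5, gave 9716, 9562 and 9996 at tZ 120 min, against 2142, 1982 and 1977 at tZ 30 min. Its change was 2.25 (SE 0.050, adjusted p = 1.4e-13). In each of these 3 genes the groups did not overlap and every array at 120 min was several times brighter than any at 30 min.

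Of the cytokinin oxidase/dehydrogenases, 2 of 3 tested genes were higher at 120 min and none lower, beside 3.8% higher of all probe sets. Their median change was 1.73. OsCKX4 read 3075, 3003 and 2745 at tZ 120 min, against 554, 472 and 552 at tZ 30 min, a change of 2.44 (SE 0.084, adjusted p = 1.3e-11). OsCKX5 read 519, 531 and 574 at tZ 120 min, against 118, 151 and 186 at tZ 30 min, a change of 1.73 (SE 0.17, adjusted p = 3.3e-06). The groups were apart in both genes, and the tZ 30 min arrays of OsCKX5 spread more, in proportion, than those at 120 min. OsCKX11 read 2324, 2253 and 2326 at tZ 120 min, against 1952, 1998 and 2105 at tZ 30 min. Its arrays did not overlap either, but the change of 0.19 (SE 0.090) was not called (adjusted p = 0.27). OsCKX1 and OsCKX3 were too dim in leaf to be tested.

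**Figure D2:**
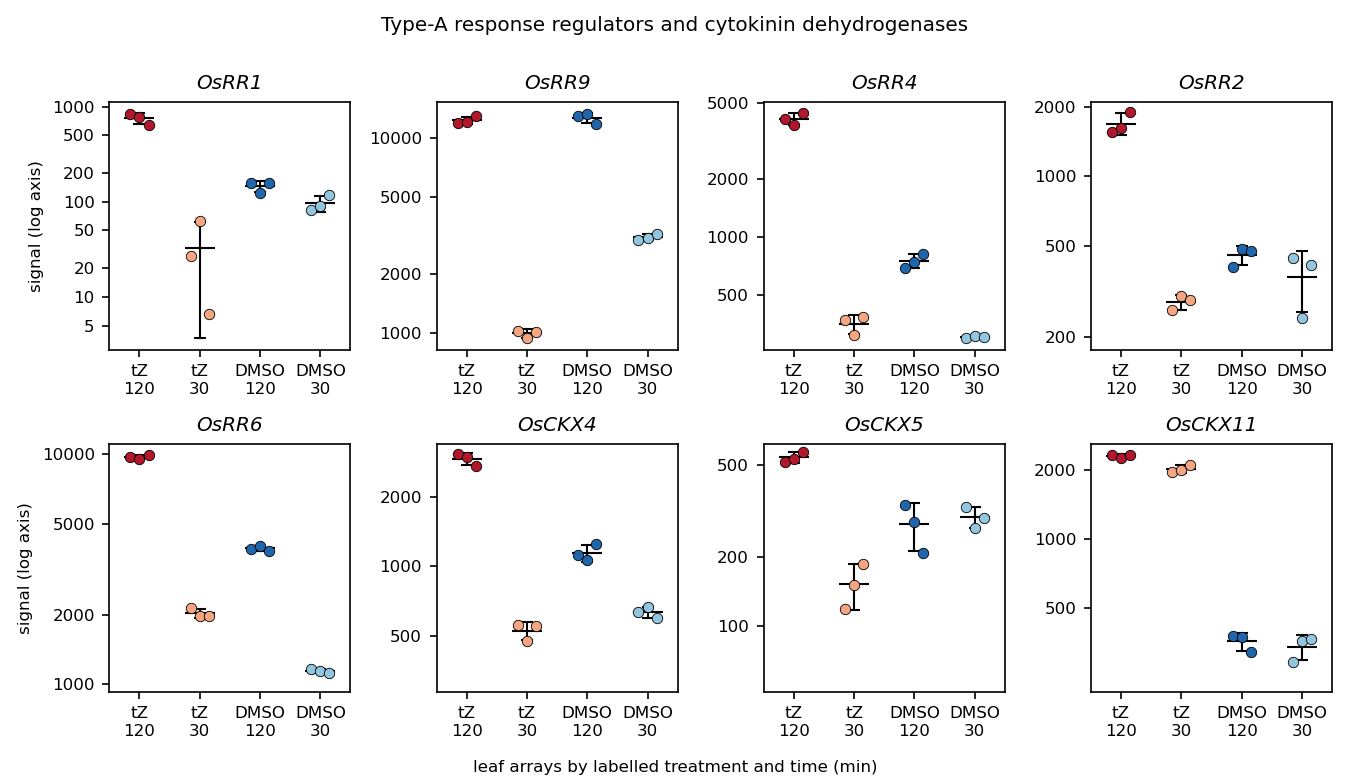
Signals of the 5 tested type-A response regulators and 3 tested cytokinin dehydrogenases in the 12 leaf arrays (log axis; points are arrays, bars are mean and SD, n = 3). The tZ 120 min arrays of OsRR1, OsRR9, OsRR4, OsRR2, OsRR6, OsCKX4 and OsCKX5 all lie above the tZ 30 min arrays, and OsCKX11 is high in both tZ groups and low in both DMSO groups.

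Genes upstream in the pathway moved less and in both directions. Of the 11 receptors, phosphotransfer proteins and type-B regulators tested, 2 rose and 4 fell, and their median change was -0.085. Of all probe sets, 3.8% were called higher and 4.21% lower. The largest rise of the 11 was that of OsCRL1b, whose other name OsHK4 marks it as a histidine kinase receptor of cytokinin. It read 914, 911 and 890.1 at tZ 120 min, against 430.4, 398 and 436 at tZ 30 min. The groups were far apart, and the change was 1.07 (SE 0.092, adjusted p = 8.4e-07). The type-B regulator gene OsRRB4 fell most, to 408 ± 18.2 at tZ 120 min, against 591 ± 46.2 at tZ 30 min, a change of -0.51 (SE 0.094, adjusted p = 0.0021). The remaining calls, named after their values were seen, were OsRRB2 (0.30) as higher and OsRRB1 (-0.36), OsCRL3 (-0.39) and OsCRL2 (-0.29) as lower. The phosphotransfer genes OsAHP1, OsAHP2 and OsHpt5 were not called, with changes of 0.105, -0.15 and 0.31. Of 8 genes of cytokinin synthesis and activation, 1 rose and 1 fell, to be read beside the same shares of all probe sets. Both genes encode the LOG type of enzyme, which releases active cytokinin bases. LOG changed by 0.49 (SE 0.064, adjusted p = 8.3e-05), and LOGL9 by -0.45 (SE 0.082, adjusted p = 0.0017).

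Most calls had no gene name, and 183 of the 1303 higher and 215 of the 1446 lower calls carried one. OsCPD2, OsEXP2, OsRac6, OsHox2, GRXC15, OsPP2C08 and LAC7 were, with the 5 type-A regulators, OsCKX4 and OsCKX5, the 14 largest rises among named genes. OsCPD2 (CYP90A4), a homologue of an Arabidopsis enzyme of brassinosteroid synthesis, read 868, 798 and 715 at tZ 120 min, against 210.3, 172 and 253 at tZ 30 min. All arrays at 120 min were higher, and the change was 1.82 (SE 0.13, adjusted p = 1.3e-07). The expansin gene OsEXP2, of a family that loosens cell walls, read 422, 367 and 412 at tZ 120 min, against 99.2, 133 and 118 at tZ 30 min. It changed by 1.63 (SE 0.17, adjusted p = 9.5e-06), and a further expansin gene, OsEXPB3, picked after its value was seen, by 1.11 (adjusted p = 2.2e-06). OsEXLA1, an expansin-like gene, changed by -0.43 (adjusted p = 0.0010). Thus 2 of 16 tested expansin genes rose and 1 fell, beside 3.8% higher and 4.21% lower of all probe sets.

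OsRac6, a small GTPase gene of the plant Rac family, read 674, 668 and 567 at tZ 120 min, against 215, 225 and 175 at tZ 30 min. OsHox2, a homeodomain-leucine zipper transcription factor gene, read 728, 628 and 781 at tZ 120 min, against 270.0, 188 and 250.4 at tZ 30 min. In both the groups were far apart, with changes of 1.55 (SE 0.15, adjusted p = 3.1e-06) and 1.52 (SE 0.19, adjusted p = 4.9e-05). Of 22 tested genes of the OsHox2 family, 3 rose and 3 fell, beside 3.8% higher and 4.21% lower of all probe sets. OsHox6 changed by -0.80 (adjusted p = 4.6e-06). OsHox15 (0.96) and OsHox1 (0.78) were the other rises and OsHox22 (-0.64) and OsHox4 (-0.41) the other falls, all 4 named after their values were seen.

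The glutaredoxin gene GRXC15 averaged 492 ± 51.1 at tZ 120 min and 145 ± 37.6 at tZ 30 min, a change of 1.65 (SE 0.13, adjusted p = 4.8e-07). The protein phosphatase 2C gene OsPP2C08 averaged 1401 ± 31.0 at tZ 120 min and 479.9 ± 18.1 at tZ 30 min, a change of 1.51 (SE 0.062, adjusted p = 1.2e-10). The laccase gene LAC7 read 100.1, 146 and 184 at tZ 120 min, against 48.1, 52.7 and 15.5 at tZ 30 min. LAC7 is dim, and its change of 1.51 (SE 0.28, adjusted p = 0.0020) was 0.91 with a pseudocount of 80.

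Of 13 tested TIFY/JAZ genes, repressors of jasmonate signalling, 9 were higher at 120 min and none lower, with a median change of 0.28. Of all probe sets, 3.8% were called higher. The JAZ proteins hold back transcription until jasmonate has them degraded. OsJAZ13 moved most. It read 3270.0, 3404 and 3618 at tZ 120 min, against 1049.6, 1334 and 1306 at tZ 30 min, with the groups far apart and a change of 1.47 (SE 0.078, adjusted p = 2.7e-09). Both lay below the DMSO groups, at 13493 ± 469 for DMSO 120 min and 13859 ± 867 for DMSO 30 min. Of the others, named after their values were seen, OsJAZ10 changed by 0.65, OsJAZ4 by 0.64, OsJAZ12 by 0.54 and OsJAZ7 by 0.53. OsTIFY3, OsTIFY6a, OsTIFY8 and OsTIFY11a were not called. Titled tZ against DMSO, 10 of the 13 were lower in tZ at 120 min and 11 at 30 min, and none was higher. Of all probe sets, 21.4% and 21.8% were lower in those comparisons. As titled, most of these genes thus stayed below DMSO at both times. Of 16 tested genes of jasmonate synthesis 2 were higher and 2 lower at tZ 120 min, beside 3.8% higher and 4.21% lower of all probe sets. The allene oxide synthase genes AOS1 and AOS2 moved apart, by 0.75 (SE 0.060, adjusted p = 4.0e-07) and -0.65 (SE 0.086, adjusted p = 9.1e-05).

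Among named genes, LEA19, ML and OsCHS1 had the largest falls, and ranked 9, 15 and 16 from the bottom of all probe sets tested. LEA19 (OsLEA3-1), a late embryogenesis abundant protein gene known to be induced by drought, read 178, 81.7 and 157 at tZ 120 min, against 664, 531 and 746 at tZ 30 min. Every array at 120 min was far below every array at 30 min. The change was -2.11 (SE 0.22, adjusted p = 6.9e-06). ML, also called salT, encodes a mannose-binding lectin known to be induced by salt, and read 75.0, 71.5 and 67.3 at tZ 120 min, against 336, 323 and 358 at tZ 30 min. Its arrays formed tight, separate groups with a change of -1.98 (SE 0.15, adjusted p = 2.7e-07), and its other probe set changed by -1.25. RAB21, a dehydrin gene responsive to abscisic acid, read 64.7, 77.7 and 102 at tZ 120 min, against 216, 173 and 210.1 at tZ 30 min. Its groups were apart with a change of -1.13 (SE 0.20, adjusted p = 0.0014), and its dimmer probe set changed by -2.58.

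OsCHS1 encodes chalcone synthase, the entry enzyme of flavonoid synthesis. It read 969, 902 and 802 at tZ 120 min, against 3825, 3382 and 3303 at tZ 30 min. The groups were far apart and the change was -1.95 (SE 0.082, adjusted p = 1.7e-10). The other 2 probe sets assigned to this gene changed in the same direction but by less, -0.25 and -0.73.

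Genes of diterpenoid phytoalexin synthesis, which make the antimicrobial momilactones, oryzalexins and phytocassanes of rice, fell or were not called. Of 16 tested members 7 were lower at 120 min and none higher, beside 4.21% lower and 3.8% higher of all probe sets. Their median change was -0.58. OsKS10, a kaurene synthase-like gene of oryzalexin synthesis, read 413, 439 and 394 at tZ 120 min, against 998, 1156 and 1112 at tZ 30 min. Its groups were far apart, with a change of -1.35 (SE 0.12, adjusted p = 8.2e-07). OsDTC1, a diterpene cyclase gene of phytocassane synthesis, read 194, 252 and 233 at tZ 120 min, against 550.3, 543 and 584 at tZ 30 min. OsKO4 (CYP701A8), a cytochrome P450 gene, read 663, 673 and 626 at tZ 120 min, against 1566, 1634 and 1445 at tZ 30 min. Both had separate groups, with changes of -1.24 (SE 0.12, adjusted p = 4.4e-06) and -1.22 (SE 0.073, adjusted p = 1.5e-08).

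OsCPS4, which makes the precursor of momilactones, averaged 166 ± 30.3 at tZ 120 min and 397 ± 33.9 at tZ 30 min. Its change of -1.17 (SE 0.27, adjusted p = 0.010) was not called without replicate 1 of tZ 120 min (-1.03, adjusted p = 0.057). Of the further members called, picked after their values were seen, CYP99A2 changed by -0.84, CYP71Z7 by -0.57 and OsCPS2 by -0.44. OsKS5 had a positive change that was not called (0.76, adjusted p = 0.19), and OsKO5 and CYP76M7 were too dim to be tested.

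Of 10 tested defence genes, 7 fell and 1 rose, beside 4.21% lower and 3.8% higher of all probe sets. Their median change was -0.45. Without an intensity trend 4 fell, and after shifting arrays to 1 median 5 fell and none rose. The chitinase gene OsChia1a, whose product cuts the chitin of fungal walls, read 1329, 1163 and 1168 at tZ 120 min, against 2576, 2404 and 2709 at tZ 30 min. The arrays did not overlap and the change was -1.06 (SE 0.069, adjusted p = 3.7e-08). The chitinase genes OsChia1c (-0.85), OsChia4a (-0.79), OsChia2b (-0.59) and OsChia2a (-0.32), the pathogenesis-related gene PBZ1 (-0.45) and PAL (-0.44), of phenylpropanoid synthesis, also fell, and were named after their values were seen. Cht6 was the 1 member that rose, by 0.24 (SE 0.049, adjusted p = 0.0043). That call was lost with arrays shifted to the same median (0.25, adjusted p = 0.062).

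OsWRKY76, a transcription factor gene known in rice as a repressor of defence genes, read 103, 65.3 and 125 at tZ 120 min, against 249, 242 and 224 at tZ 30 min. The groups were apart, with a change of -1.17 (SE 0.13, adjusted p = 1.4e-05), and both lay far below the DMSO groups, at 9408 ± 282 for DMSO 120 min and 11137 ± 253 for DMSO 30 min. Of 6 tested WRKY genes 3 fell and none rose, beside 4.21% lower of all probe sets. Only 1 WRKY gene fell with arrays shifted to the same median. OsASMT1, of melatonin synthesis, read 7.20, 48.4 and 49.1 at tZ 120 min, against 125, 104 and 85.4 at tZ 30 min. Its change of -1.29 (adjusted p = 0.017) was -0.85 and not called without replicate 1 of tZ 120 min (adjusted p = 0.061), and was also not called without replicate 1 (-1.18) or 2 (-1.29) of tZ 30 min. OsSTLP3 changed by -1.16 (adjusted p = 0.023). It was not called without replicate 1 of tZ 120 min (-0.94) or without replicate 2 (-1.07) or 3 (-1.11) of tZ 30 min.

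Among other large falls of named genes, SAUR39, a small auxin-up RNA gene, read 1456, 1517 and 1480.1 at tZ 120 min, against 3365, 2782 and 3652 at tZ 30 min. The groups were far apart, and the change was -1.12 (SE 0.10, adjusted p = 1.8e-06). The laccase gene LAC24 read 1952, 2129 and 2086 at tZ 120 min, against 4398, 4253 and 4627 at tZ 30 min, a change of -1.10 (SE 0.055, adjusted p = 1.3e-09). It thus moved opposite to LAC7. OsCIPK05, a kinase gene of calcium signalling, averaged 691 ± 90.1 at tZ 120 min and 1525 ± 107 at tZ 30 min, a change of -1.13 (SE 0.10, adjusted p = 1.5e-06).

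**Figure D3:**
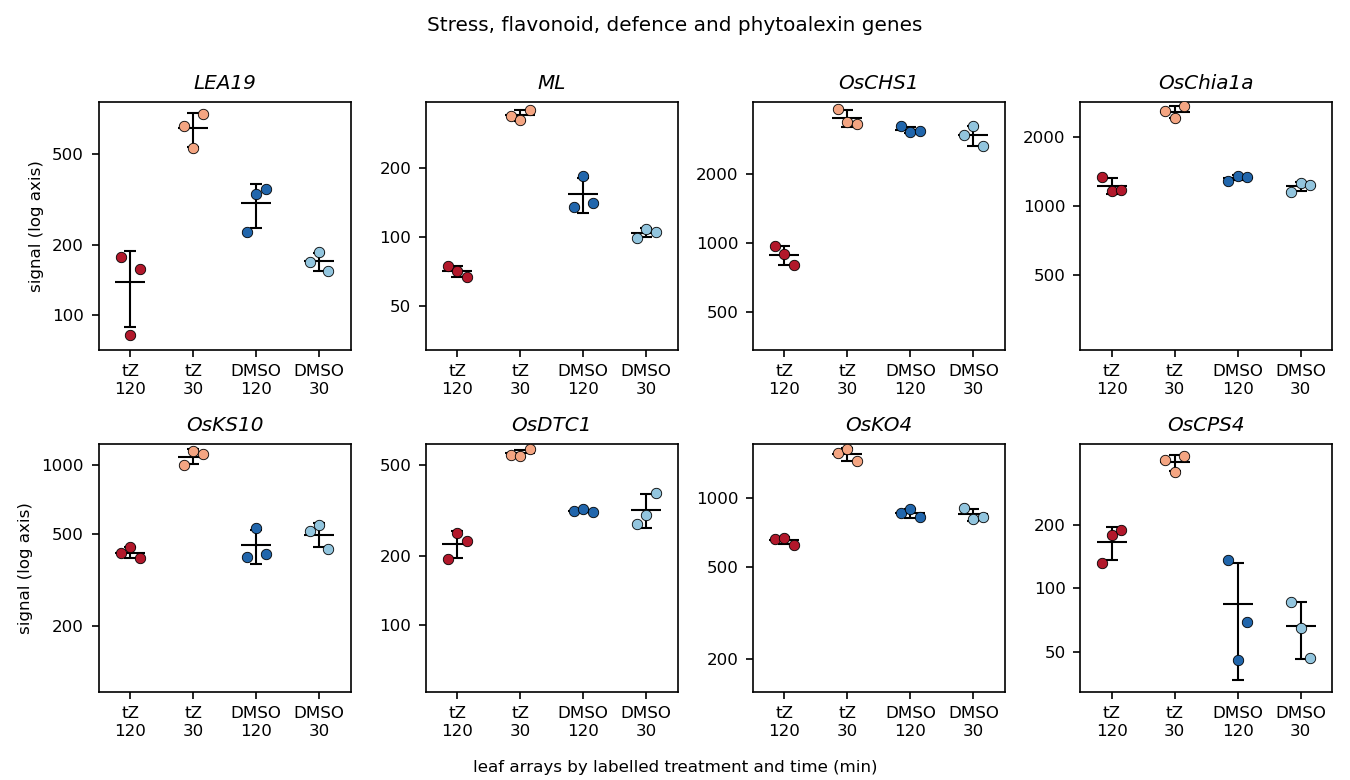
Signals of 8 genes that fell between tZ 30 and 120 min in the 12 leaf arrays (log axis; points are arrays, bars are mean and SD, n = 3). In each panel the tZ 120 min arrays lie below the tZ 30 min arrays, and the 2 DMSO means lie closer to each other than the 2 tZ means.

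The counts of the other gene groups stand beside 3.8% of all probe sets called higher and 4.21% called lower. Of 69 tested calcium sensor and kinase genes, 6 rose and 12 fell. The kinase gene OsCIPK25 moved opposite to OsCIPK05 and read 3044, 3285 and 3143 at tZ 120 min, against 1282, 1014 and 1162 at tZ 30 min, a change of 1.44 (SE 0.091, adjusted p = 2.3e-08). Of 44 auxin response genes, 1 rose and 7 fell. The rise was that of OsGH3-8, whose enzyme conjugates auxin to amino acids, at 0.56 (SE 0.081, adjusted p = 0.00023). Of 8 beta-tubulin genes 4 rose, OsTUB6 most (0.60, SE 0.089, adjusted p = 0.00029), and none fell.

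Of 22 aquaporin genes, 3 rose and 5 fell. The tonoplast aquaporin genes OsTIP2;2 and OsTIP4;2 changed by 0.70 (adjusted p = 2.1e-05) and -0.84 (adjusted p = 0.0029). Of 51 genes of nutrient transport and assimilation, 5 rose and 7 fell, led by osysl9, of the family that moves metal chelates, at 1.07 (adjusted p = 2.5e-07), and OsNAAT1, of phytosiderophore synthesis, at -0.81 (adjusted p = 5.0e-05). SMR1, a cyclin-dependent kinase inhibitor gene, averaged 3001 ± 65.2 at tZ 120 min and 5176 ± 282 at tZ 30 min, a change of -0.78 (SE 0.055, adjusted p = 7.5e-08). The remaining genes of its list gave 2 rises, CYCD3-1 (0.66) among them, and 1 further fall among 31 tested, and the call of CYCD3-1 (adjusted p = 0.036) was lost without any 1 of 5 of the 6 arrays (0.58 to 0.67).

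Of 9 tested photosynthesis genes, 2 rose and 1 fell, with a median change of 0.10, beside 3.8% higher and 4.21% lower of all probe sets. The rubisco small subunit gene OsrbcS averaged 11086 ± 930.4 at tZ 120 min and 7781 ± 810.2 at tZ 30 min, a change of 0.51 (SE 0.075, adjusted p = 0.00024), and 1 of its 3 other probe sets changed by -0.06. OsPSAG, of photosystem I, changed by -0.24 (adjusted p = 0.017). It was not called without replicate 1 of tZ 120 min (-0.21) or replicate 2 of tZ 30 min (-0.19). Among 9 chlorophyll synthesis and GLK genes 2 rose and none fell. No gene was called among 7 circadian clock genes (median 0.035) and 12 histone and DNA replication genes (median -0.07). Among 23 genes matched as cytosolic ribosomal proteins 1 was called, Ip at -0.28, whose other names (rps14, sdhB) are not those of a cytosolic ribosomal protein.

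**Figure D4:**
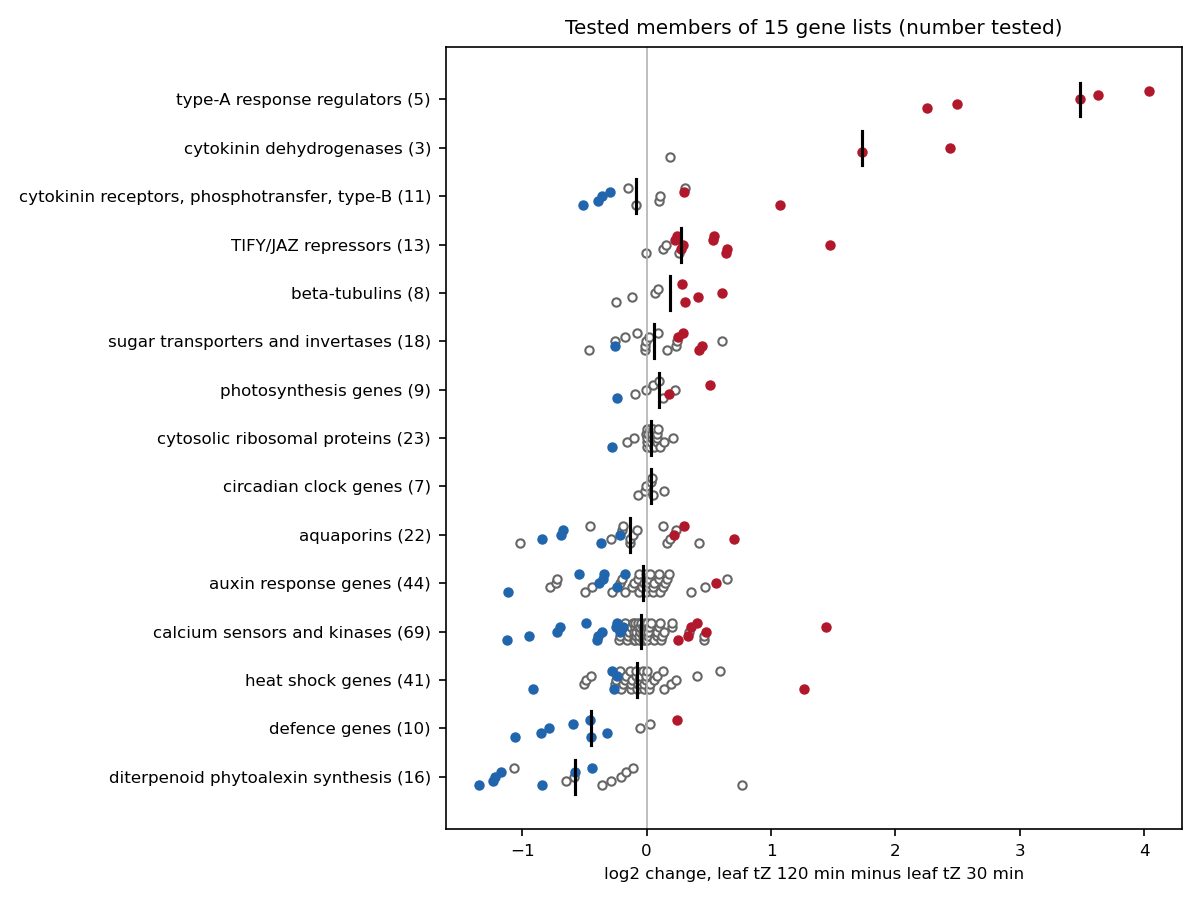
Log2 change between 120 and 30 min in leaf tZ of every tested member of 15 gene lists, 1 row per list (filled red, called higher; filled blue, called lower; open, not called; black line, median). Type-A response regulators lie between 2.25 and 4.03, phytoalexin genes have a median of -0.58, and TIFY/JAZ genes one of 0.28.

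The same titled times without tZ gave far fewer calls. Between DMSO 120 and 30 min in leaf, on 6 other arrays, 481 probe sets were called (1.4%), 243 higher (0.708%) and 238 lower (0.694%). All 4 leaf groups entered a single model, so both time effects rest on a common spread. Of the 1303 probe sets higher at tZ 120 min, 102 were also higher at DMSO 120 min, which is 7.8% of the tZ calls and 42.0% of the DMSO calls. Of the 1446 lower ones, 84 were also lower in DMSO, 5.8% of the tZ calls and 35.3% of the DMSO calls. A total of 32 and 15 went the opposite way. The count of DMSO calls depended on single arrays. It was 239, 146 and 180 without replicates 1, 2 and 3 of DMSO 120 min, and 276 and 196 without replicates 1 and 3 of DMSO 30 min. After shifting arrays to 1 median it was 141, of which 71.6% were higher, against 50.5%, and without an intensity trend it was 61.

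Cytokinin genes were among those that moved in DMSO as well. OsRR9 read 13037, 13366 and 11877 at DMSO 120 min, against 2998, 3085 and 3228 at DMSO 30 min, a change of 2.03 (SE 0.058, adjusted p = 6.6e-12). OsRR6 averaged 3899 ± 95.7 at DMSO 120 min and 1144 ± 21.4 at DMSO 30 min, a change of 1.75 (SE 0.050, adjusted p = 6.6e-12). OsRR4 changed by 1.26 (SE 0.092, adjusted p = 3.0e-06) and OsCKX4 by 0.84 (SE 0.084, adjusted p = 0.00011). These 4 genes were higher in every array titled 120 min than in any titled 30 min of the same treatment. OsRR1, at 0.52 (SE 0.29, adjusted p = 0.50), OsRR2, at 0.34 (SE 0.16, adjusted p = 0.40), and OsCKX5, at -0.12 (SE 0.17, adjusted p = 0.86), were not called in DMSO. No phytoalexin gene of 16 tested was called in DMSO, and of 13 TIFY/JAZ genes 3 fell and none rose. Of all probe sets, only 0.708% were called higher and 0.694% lower in DMSO, so few calls are to be looked for in any list.

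Whether the time effect differed between tZ and DMSO was tested directly. The difference, tZ minus DMSO, was called for 1316 probe sets (3.83%), 698 of them higher (2.03%) and 618 lower (1.8%). The count was 678 without an intensity trend and 800 after shifting arrays to 1 median. All 5 type-A genes were called, by 3.52 (OsRR1), 2.22 (OsRR4), 2.15 (OsRR2), 1.59 (OsRR9) and 0.50 (OsRR6), with adjusted p from 8.5e-09 to 0.00043. OsCKX5 differed by 1.84 (SE 0.24, adjusted p = 0.00016) and OsCKX4 by 1.60 (SE 0.12, adjusted p = 5.2e-07). Of the TIFY/JAZ genes 10 of 13 were called higher in this difference, and of the phytoalexin genes 5 of 16 were called lower. OsCHS1 differed by -2.04 (SE 0.12, adjusted p = 2.6e-08).

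In roots kept in tZ, 2312 of 34316 probe sets were called between the same titled times (6.74%), 1252 higher (3.65%) and 1060 lower (3.09%). The count was 1397 and 1438 without replicates 2 and 3 of root tZ 30 min, and 1232 without an intensity trend. With arrays shifted to the same median 69.6% of the root calls were higher, against 54.2%. Over the 30501 probe sets tested in both organs, 288 were higher at 120 min in both, 24.5% of the leaf calls and 25.2% of the root calls. Likewise 233 were lower in both, 17.1% of the leaf calls and 24.0% of the root calls, and 25 and 46 moved oppositely. All 5 type-A genes rose in root as well, with a median of 1.55, and 4 of 5 dehydrogenase genes did. OsCKX5 read 3299.9, 2202 and 3396 in root at tZ 120 min, against 474, 449.9 and 429.5 in root at tZ 30 min, a change of 2.64 (SE 0.14, adjusted p = 4.6e-08). If the same titles had been exchanged in root too, these root changes would compare tZ with DMSO at 120 min, which was not tested.

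The leaf change minus the root change was called for 1256 probe sets (3.66%), 489 higher (1.42%) and 767 lower (2.24%). OsRR1 and OsRR4 differed by 2.04 (SE 0.38, adjusted p = 0.0018) and 1.94 (SE 0.15, adjusted p = 1.0e-08), and the smaller differences of OsRR2 (1.28), OsRR6 (0.70) and OsRR9 (0.69) were also called. OsCKX5 differed by -0.91 (SE 0.23, adjusted p = 0.026), the larger change being that in root. OsCHS1 differed by -2.10 (SE 0.17, adjusted p = 1.6e-08) and LEA19 by -2.09 (SE 0.29, adjusted p = 6.1e-05). OsChia1a differed by -1.52 (SE 0.12, adjusted p = 1.7e-08), with a root change of 0.46. In root the phytoalexin genes had 1 of 15 members higher and none lower, beside 3.65% higher and 3.09% lower of all probe sets. The difference between organs was tested per gene and not for that list.

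A total of 53 probe sets were called in leaf tZ, leaf DMSO and root tZ alike, 29 higher in all 3, 10 lower in all 3 and 14 mixed. Named genes among the 29 were OsRR9, OsRR4, OsCKX4, OsRR6, ROMT-17, OsHox1 and BAT1, the last 3 picked after their values were seen. OsHox1, of the same family as OsHox2, changed by 0.78 in leaf tZ, 0.33 in leaf DMSO and 0.94 in root tZ.

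**Figure D5:**
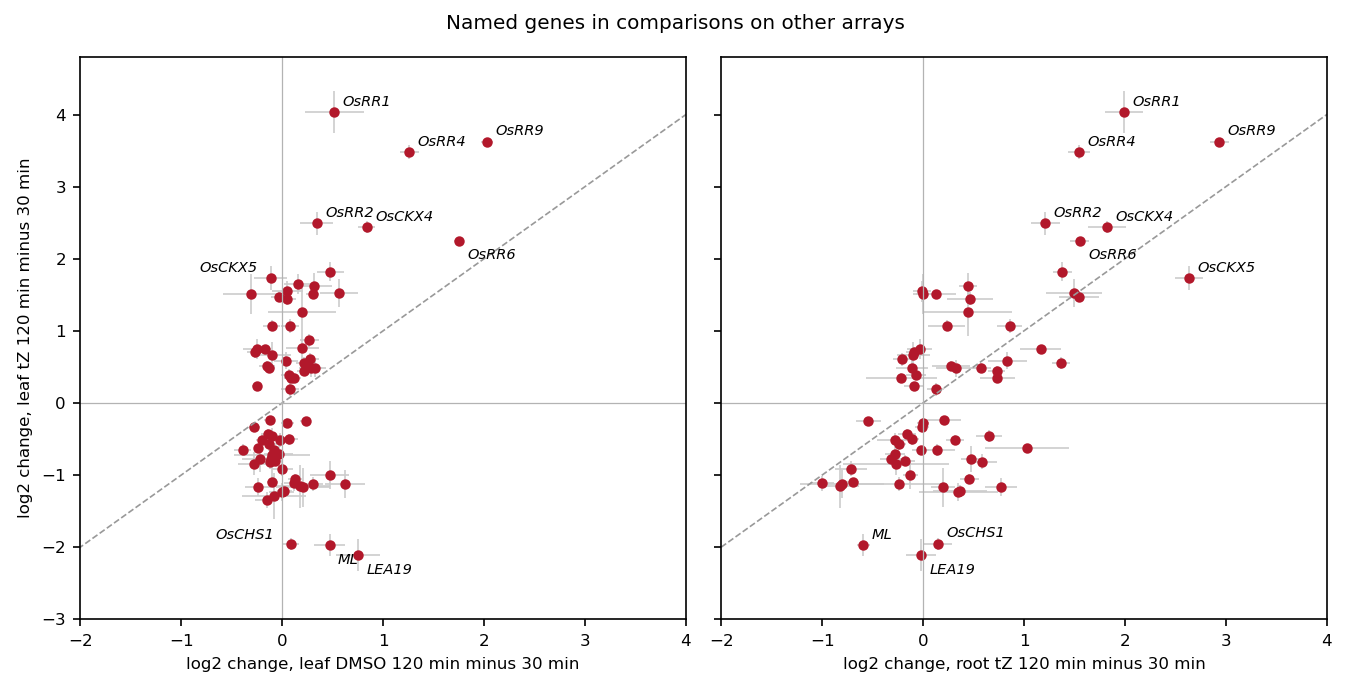
Log2 change of the named genes in leaf tZ (vertical axis) against that in leaf DMSO (left) and in root tZ (right), 120 min minus 30 min, with bars of 1 SE and a dashed line of equal change. The 5 type-A regulators, OsCKX4 and OsCKX5 lie above 0 on both axes except OsCKX5 in leaf DMSO (-0.12), and LEA19, ML and OsCHS1 lie near -2 in leaf tZ with smaller changes on the other arrays.

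The 2 readings differ in what the tZ 30 min and DMSO 120 min arrays are taken to be, so all 4 leaf groups are set side by side. OsRR4 averaged 4139.9 ± 307 at tZ 120 min, 354 ± 40.6 at tZ 30 min, 749 ± 62.3 at DMSO 120 min and 301 ± 4.51 at DMSO 30 min. OsRR9 averaged 12423 ± 523 at tZ 120 min, 989.8 ± 48.6 at tZ 30 min, 12760.0 ± 782 at DMSO 120 min and 3104 ± 116 at DMSO 30 min. OsRR4 was thus high in 1 group, and OsRR9 in both groups titled 120 min. As titled, tZ at 30 min then left OsRR4 little different from DMSO (0.21, SE 0.092, adjusted p = 0.070) and OsRR9 lower than DMSO (-1.63, SE 0.058, adjusted p = 8.9e-13). As titled, OsRR9 did not differ detectably from DMSO at 120 min (-0.04, SE 0.058, adjusted p = 0.65), while OsRR4 was higher in tZ (2.44, SE 0.092, adjusted p = 2.6e-12). With exchanged titles, the tZ effect on OsRR4 would be 1.26 at 30 min and 3.48 at 120 min, and that on OsRR9 2.03 and 3.62. With exchanged titles OsCKX4 would rise with tZ by 0.84 at 30 min and 2.44 at 120 min, OsRR6 by 1.75 and 2.25, and OsRR1 by 0.52 (not called) and 4.03. OsRR2 would change by 0.34 (not called) and 2.49, and OsCKX5 by -0.12 (not called) and 1.73. OsCKX11 would change by 0.08 and 0.19, neither of them called. As titled, OsRR6 and OsCKX11 were higher in tZ at 120 min (1.32 and 2.62) and at 30 min (0.82 and 2.51). OsRR1, OsCKX4 and OsCKX5 were higher in tZ at 120 min (2.22, 1.35 and 0.94) and lower at 30 min (-1.30, -0.26 and -0.90). The values with exchanged titles are the titled time changes under their other reading and add no evidence of their own.

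The counts of calls also trade places between the readings. Titled tZ against DMSO, 14906 probe sets were called at 120 min (43.4%) and 15637 at 30 min (45.6%), with median sizes of 0.357 and 0.38. As titled, far more probe sets were thus called for treatment than for time within tZ (8.01%) or within DMSO (1.4%). With exchanged titles the order is turned: time would be called for 43.4% of probe sets within tZ and 45.6% within DMSO, and tZ for 8.01% at 120 min and 1.4% at 30 min. Across the probe sets tested, group means correlated at 0.9889 between tZ 120 and tZ 30 min and at 0.9929 between DMSO 120 and DMSO 30 min. The correlation was 0.951 between tZ 120 and DMSO 120 min and 0.9442 between tZ 30 and DMSO 30 min. These correlations share arrays and are not independent of one another.

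For the 14 named genes with the largest rises, it was asked which of the 2 groups lay outside the other 9 leaf arrays. In 6 of them only the tZ 120 min arrays did (OsRR4, OsRR2, OsRR6, OsEXP2, OsRac6 and OsHox2). In 5 only the tZ 30 min arrays did (OsRR9, OsCPD2, GRXC15, LAC7 and OsPP2C08), and in 3 both groups did, on opposite sides (OsRR1, OsCKX4 and OsCKX5). These genes, like those of the falls below, were chosen for tZ groups that do not overlap. The share over all probe sets was not computed, so the counts only describe the chosen genes. OsRac6, for example, averaged 636 ± 60.4 at tZ 120 min, 205 ± 26.4 at tZ 30 min, 139 ± 16.3 at DMSO 120 min and 134 ± 22.8 at DMSO 30 min. GRXC15 averaged 492 ± 51.1 at tZ 120 min, 145 ± 37.6 at tZ 30 min, 698 ± 18.9 at DMSO 120 min and 625 ± 45.3 at DMSO 30 min, so its tZ 30 min arrays were the low ones.

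Of the 14 largest falls, the tZ 30 min arrays alone stood outside in 6 (LEA19, OsKS10, OsCPS4, OsSTLP3, SAUR39 and LAC24), where they were high. OsKS10 averaged 415 ± 22.6 at tZ 120 min, 1088 ± 81.6 at tZ 30 min, 447 ± 74.3 at DMSO 120 min and 498 ± 59.0 at DMSO 30 min. In 2 only the tZ 120 min arrays did (OsASMT1 and OsWRKY76), and in 5 both did (ML, OsCHS1, OsDTC1, OsKO4 and OsCIPK05), while RAB21 had neither. OsCHS1 averaged 891 ± 84.0 at tZ 120 min, 3503 ± 281 at tZ 30 min, 3120.4 ± 101 at DMSO 120 min and 2952 ± 290.5 at DMSO 30 min. As titled, a gene such as OsKS10 was high after 30 min in tZ and back near both DMSO groups after 120 min. With exchanged titles, the same gene would be high after 120 min in DMSO and near its 30 min level after 120 min in tZ.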

How the data were processed

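RNA of 24 samples was hybridised to a 1-colour rice array, with 3 arrays in each of 8 groups taken from the sample titles. The authors deposited a table of processed intensity with a linear signal for each probe set. How signals were summarised and background-corrected is a step not given in the sources used here. Trimmed by 2% at either end, mean signals were 499.95 to 499.96 on all arrays, which shows that the deposited intensity had already been scaled to 1 trimmed mean. Of 57381 probe sets, 187 controls were left out and 57194 analysed, as log2(signal + 20) with no further normalization. The pseudocount shrinks changes of dim genes.

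Testing was limited to probe sets with a mean log2 value above the 40th percentile of the arrays in the fit, which left 34316. limma 3.58.1 (R 4.3.3; lmFit, eBayes with an intensity trend, two-sided) was fitted to the 12 leaf arrays, the 12 root arrays, or all 24 for leaf minus root, with Benjamini-Hochberg adjustment over all probe sets tested. Its steps were tested on simulated data. All adjusted p-values are limma's. Precision is limited by 3 arrays per group.

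Gene names came from the platform annotation, updated with RefSeq's gene table (assembly ASM3414082v1, no coordinates taken). For 57194 probe sets, 22436 had 1 gene, 95 several and 34663 none, and all 17905 genes matched, of which 2414 are known by more than a locus or clone identifier. Of the calls, 183 higher and 215 lower probe sets carry such a name. Genes named by rule were the 14 largest called rises and falls with arrays not overlapping, all tested type-A regulators and cytokinin dehydrogenases, the called member moving most each way in every other list of at least 3 tested genes, and the 5 largest each way in the difference between tZ and DMSO and between leaf and root. The 40 lists are patterns on symbols. Members and lists were chosen with earlier results of these data known. Other pseudocounts, filters, normalizations, fits, a replicate block and leaving out arrays were tried as alternatives.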

Additional observations from a re-analysis of the deposited data

Results flagged for a closer look

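The time effect differed between tZ and DMSO in leaf, by a test of the difference itself, for 1316 probe sets. The largest positive differences among named genes were those of OsRR1 at 3.52 (adjusted p = 7.6e-05), OsRR4 at 2.22 (adjusted p = 3.5e-08), OsRR2 at 2.15 (adjusted p = 2.8e-05), OsCKX5 at 1.84 (adjusted p = 0.00016) and LAC7 at 1.82 (adjusted p = 0.013). The largest negative ones were those of LEA19 at -2.86 (adjusted p = 2.9e-05), ML at -2.45 (adjusted p = 3.9e-06), OsCHS1 at -2.04 (adjusted p = 2.6e-08), RAB21 at -1.75 (adjusted p = 0.0012) and the sucrose synthase gene OsSUS1 at -1.47 (adjusted p = 0.0042). These values hold under both readings of the titles.

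As titled, the change with time in tZ differed between leaf and root for 1256 probe sets. Among named genes, leaf minus root was most positive for OsRR1 at 2.04 (adjusted p = 0.0018), OsRR4 at 1.94 (adjusted p = 1.0e-08), BASS3 at 1.88 (adjusted p = 0.0035), GRXC15 at 1.86 (adjusted p = 0.048) and the YABBY transcription factor gene OsYAB1 at 1.77 (adjusted p = 0.013). Among named genes it was most negative for the auxin response factor gene ARF13 at -2.16 (adjusted p = 0.021), OsASMT1 at -2.11 (adjusted p = 0.034), OsCHS1 at -2.10 (adjusted p = 1.6e-08), LEA19 at -2.09 (adjusted p = 6.1e-05) and OsWRKY76 at -1.94 (adjusted p = 4.4e-06). BASS3, GRXC15, OsYAB1, ARF13 and OsASMT1 were too dim to be tested in root alone. ARF13 was not called in leaf (-0.72, adjusted p = 0.32), and its arrays overlapped there. Its leaf change was -0.31 without replicate 1 of tZ 120 min and -1.11 without replicate 2. Groups of 3 arrays are too small to be screened for outlying arrays.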

How the results depend on the processing

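The 2749 calls between tZ 120 and 30 min in leaf became 1819 without an intensity trend, and 1989 to 2675 with 1 array left out. They became 1864 (51.8% higher, against 47.4%) after shifting arrays to 1 median. No call of a named gene was reversed, and 62 of 75 genes kept their side of the threshold in every alternative that gave a value. The 481 DMSO calls became 61 without a trend, 141 (71.6% higher, against 50.5%) after shifting arrays to 1 median and 315 with no filter. Leaving out 1 array gave 146 to 331, fewest without replicate 2 of DMSO 120 min. They were 239 and 180 without replicates 1 and 3 of that group, and 276 and 196 without replicates 1 and 3 of DMSO 30 min. The 1316 calls of the difference, tZ minus DMSO, became 678 without a trend and 800 after shifting arrays to 1 median. The 2312 root calls became 1232 without a trend, and 1397 to 2136 with 1 array left out. The lowest were 1397 and 1438, without replicates 2 and 3 of root tZ 30 min. With arrays shifted to the same median 69.6% of root calls were higher, against 54.2%. The cause of these moves was not tested. Among named genes, a pseudocount of 80 gave LAC7 0.91, OsASMT1 -0.70, OsSTLP3 -0.77 and the heat shock factor gene OsHsf-02 0.64. OsHsf-02, at 1.26 (adjusted p = 0.029) in the main fit, kept its call in only 7 of 14 alternatives. Replicate numbers did not pair the arrays. Deviations of same-numbered tZ arrays correlated at 0.0197, 0.012 and -0.0221. With the replicate block 2486 probe sets were called in leaf tZ, 299 in leaf DMSO, 1119 in the difference, 2257 in root tZ and 1228 in leaf minus root. Signals near the array medians limit what can be said of dim genes such as OsRR1 at tZ 30 min.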
